A study of Mus musculus with 10 samples.

Results

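Immediate-early transcription factors of the AP-1 family and its partners were followed across 6 groups and 10 single-cell RNA libraries of mouse lung alveolar cells. The group held 10 genes, matched by gene symbol in the deposited gene lists: Fos, Fosb, Fosl1, Fosl2, Jun, Junb, Jund, Atf3, Egr1 and Ier2, out of 31053 genes in all. Each symbol had 1 gene entry, and all 10 genes passed the filter on low counts in the fits whose values are given first in each comparison below. The genes were listed by name, with earlier results of these data known. Fosl1, Fosl2 and Jun were examined apart from Fos, Fosb and Egr1, which are well known to be induced when tissue is dissociated with warm enzymes.

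All mice carried Sftpc-CreERT2, a tamoxifen-activated Cre driven by the promoter of surfactant protein C, so that labelling was limited to alveolar type II (AT2) cells and their descendants, and all received tamoxifen as adults (3 doses of 0.2 mg per g body weight in the labels). Confetti mice (Sftpc-CreERT2; R26R-Confetti) gave 1 library of RFP+ and 1 of YFP+ cells, neither carrying an oncogene. Red2Kras mice (Sftpc-CreERT2; Red2Kras) gave RFP+ cells that express the oncogene of the line and YFP+ wildtype cells, at 4 days and at 2 weeks after tamoxifen, with 2 libraries for each colour and time. Cells were EpCAM+ and sorted by colour after collagenase and dispase digestion at body temperature, and each library pooled lungs of more than 1 mouse, so that the spread between libraries is not a spread between single animals. The labels give no time for the Confetti libraries (the study's methods place them at 2 weeks). The mouse line differed along with the Confetti and Red2Kras groups and cannot be told apart from them, and neither source says which libraries were prepared on the same day.

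AP-1 is a dimer of a Jun protein with a Fos, Jun or ATF protein that binds a short palindromic DNA element. Its Fos-family genes are switched on within minutes of growth factor or stress signals through ERK and other MAP kinases acting on SRF, ternary complex factors and CREB at their promoters, and the mRNAs are soon degraded. Fosl1 (Fra-1) and Fosl2 (Fra-2) lack the strong transactivation domain of Fos and are induced later, Fosl1 being known as a gene kept high by sustained ERK signalling in transformed epithelium, while Egr1 is a zinc finger factor and Ier2 a small nuclear protein of the same early wave.

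In GRCm38 coordinates with the GENCODE M21 annotation, Fos (ENSMUSG00000021250) lies at chr12:85473890-85477273 on the plus strand, Fosl1 (ENSMUSG00000024912) at chr19:5447547-5455946 on the plus strand, Fosl2 (ENSMUSG00000029135) at chr5:32135801-32157842 on the plus strand and Jun (ENSMUSG00000052684) at chr4:95049034-95052222 on the minus strand. Fosb lies at chr7:19302696-19310051 and Atf3 at chr1:191170296-191218039, both on the minus strand. Junb (chr8:84974484-84978718, minus), Ier2 (chr8:84661331-84662852, minus) and Jund (chr8:70698949-70700616, plus) share a chromosome. The 250 bases upstream of the RefSeq start were searched on both strands for elements by which these factors are known to be induced. The search covered 7 members in the RefSeq promoter table of GRCm38.p6 (Fos, Fosb, Fosl2, Jun, Junb, Jund and Atf3), and the other members were not searched. The matches are shown because Fos, Jun, Atf3, Fosb and Fosl2 are the genes whose levels are set against Fosl1 below. Each is printed 5′ to 3′ on the strand of its gene with the match in capitals.
Fos: ccgcccagTGACGTaggaagtc
Jun: cctcggggTGACATCAtgggctat
Atf3: atagcattACGTCAgc
Fosb: acgcaagcGCGGGGGCGggtcccgg
Fosl2: ggctgcgcGCGGGGGCGgaagggcg

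The Fos element is the CRE core TGACGT, with its window at chr12:85473816-85473837. Jun holds the AP-1 and ATF element TGACNTCA at chr4:95052252-95052275, on the minus strand, and the Atf3 window at chr1:191183334-191183349 holds the CRE core on the strand opposite to the gene. Fosb (chr7:19310079-19310103) and Fosl2 (chr5:32136385-32136409) hold the EGR element GCGNGGGCG. Among 32851 promoter windows of the same length, TGACGT was found in 6.47%, TGACNTCA (which overlaps TGACGT where its free base is G) in 7.49% and GCGNGGGCG in 4.70%. The AP-1 element TGANTCA, found in 6.75% of windows, and the CArG box, found in 1.47%, had no match in the windows of the 7 members. A match or its absence describes these letters in this window and is not a measurement of binding.

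Of 42012 barcodes, 32698 passed the filters and 29574 were alveolar, the rest being immune-like, endothelial-like, ciliated-like and mesenchymal-like cells that the sort had carried along. The alveolar cells of a library summed to between 7333647 and 71467568 UMIs (unique molecular identifiers, each a captured mRNA molecule). In the library labelled 4 days RFP replicate 1, 3309 of 3715 alveolar cells were AT2-like and 40 DATP-like (damage-associated transient progenitors, the intermediate state marked by Krt8 and Cldn4), whereas 4 days RFP replicate 2 held 521 DATP-like cells of 1431. The 4 days YFP libraries differed by number in the same way, replicate 1 being 94.8% AT2-like and replicate 2 being 1.26% AT2-like and 85.9% primed AT2-like. The pair of 2 weeks libraries numbered 1 had the highest summed level of 23 other dissociation-linked immediate-early genes, at 3473 CPM (UMI counts scaled to an equal library total) in RFP and 3413 in YFP against 1525 to 2428 in the other 8 libraries. Mouse sexes were mixed unevenly: the Confetti cells that could be called were 100% female, those of the Red2Kras libraries numbered 2 at most 0.538%, and those numbered 1 between 25.8% and 85.1%. Sex thus differed along with the Confetti and Red2Kras groups, and its part in the comparisons with Confetti was not tested. In all, 137 barcodes occurred in more than 1 library.

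Fosl1 was the member that separated RFP+ from YFP+ cells. In the sums of alveolar cells it stood at 5.15 and 51.7 CPM in the 4 days RFP libraries (replicates 1 and 2) against 1.84 and 1.26 in the 4 days YFP libraries. At 2 weeks it stood at 21.8 and 17.0 CPM in RFP against 3.53 and 4.46 in YFP, and in Confetti it was 1.68 in RFP and 1.89 in YFP. All 4 RFP libraries lay above all 4 YFP libraries, although 4 days RFP replicate 1 lay only just above 2 weeks YFP replicate 2. In sums over cells, fewer cells of a type and less RNA per cell cannot be told apart.

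**Figure D1:**
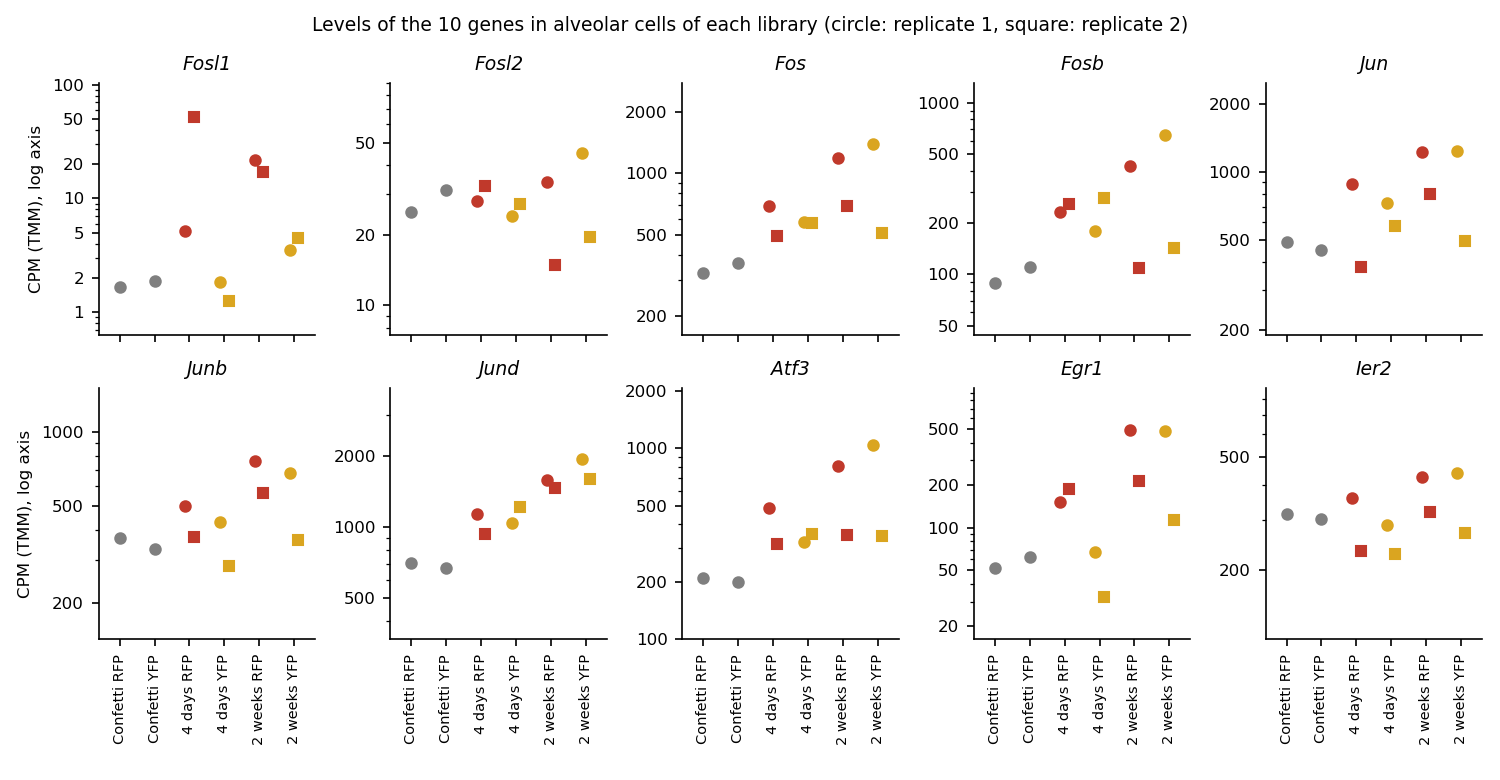
Level of each of the 10 genes (TMM-scaled CPM, log axis) in the alveolar cells of each of the 10 libraries, 1 point per library and no error bars. Fosl1 is the gene whose 4 Red2Kras RFP libraries (5.15 to 51.7) all sit above the 4 Red2Kras YFP libraries (1.26 to 4.46), while Fos, Fosb, Jun and Atf3 are high in both 2 weeks libraries numbered 1.

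Across both time points, Fosl1 was 3.17 ± 0.70 log2 units (SE, 4 RFP and 4 YFP libraries) higher in RFP+ cells, with an unadjusted p of 0.00135 and an adjusted p of 0.0849 by edgeR's quasi-likelihood test, so that it did not pass the threshold of 0.05. No member was called, and no gene was (0 of 12498, 0%), with 2678 genes and 1 member, Fosl1, at an unadjusted p under 0.05. DESeq2 on the same sums called 1193 genes (9.55%), among them Fosl1 alone of the members (log2 3.23, adjusted p = 1.74e-05), and the adjusted p of Fosl1 ranged from 3.29e-28 to 0.314 over 17 alternatives. Without the filter on low counts edgeR called Fosl1 and Egr1 with 9.4% of genes, with the replicate number as a block Fosl1 with 7.06%, with the same-numbered RFP and YFP libraries of each time point as pairs Fosl1 with 16.1% (log2 2.86 ± 0.53, adjusted p = 0.0125), and without both 4 days libraries numbered 1 Fosl1 with 9.57%. Leaving out the library labelled 4 days RFP replicate 1 brought Fosl1 to an adjusted p of 0.0121 in edgeR (log2 3.45, with 11.3% of genes called), and leaving out 4 days RFP replicate 2 to 0.0464 (log2 2.09, with 0.0552% called). Fosl1 was 1 of 10 members whose RFP libraries all lay above the YFP libraries, against 4.32% of 13758 genes, and no member lay wholly below, against 4.73%.

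At each time point separately, the fit over all 10 libraries gave Fosl1 a difference of 4.20 ± 0.95 log2 units at 4 days (adjusted p = 0.809) and of 2.30 ± 0.86 at 2 weeks (adjusted p = 0.265, edgeR). No member was called at either time. At 4 days 0 of 13758 genes were called (0%) by edgeR, with 785 genes and 2 members (Fosl1 and Egr1) at an unadjusted p under 0.05, and 106 genes (0.77%) by DESeq2, which called Fosl1. At 2 weeks edgeR called 1 gene (0.00727%), with Fosl1 the 1 member of 2254 genes at an unadjusted p under 0.05, and DESeq2 called 465 genes and no member. Without the filter, edgeR called Fosl1 and Egr1 at 4 days (2.39% of genes) and Fosl1 at 2 weeks (6.65%). The 4 days call turned on the library labelled 4 days RFP replicate 1: without it, Fosl1 differed by 5.08 log2 units with an adjusted p of 0.00672 (1.42% of genes called, adjusted p from 3.06e-20 to 1 over 17 alternatives), the remaining RFP library being assumed to vary like the other groups. Whether the difference itself differed between 4 days and 2 weeks was not tested.

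**Figure D2:**
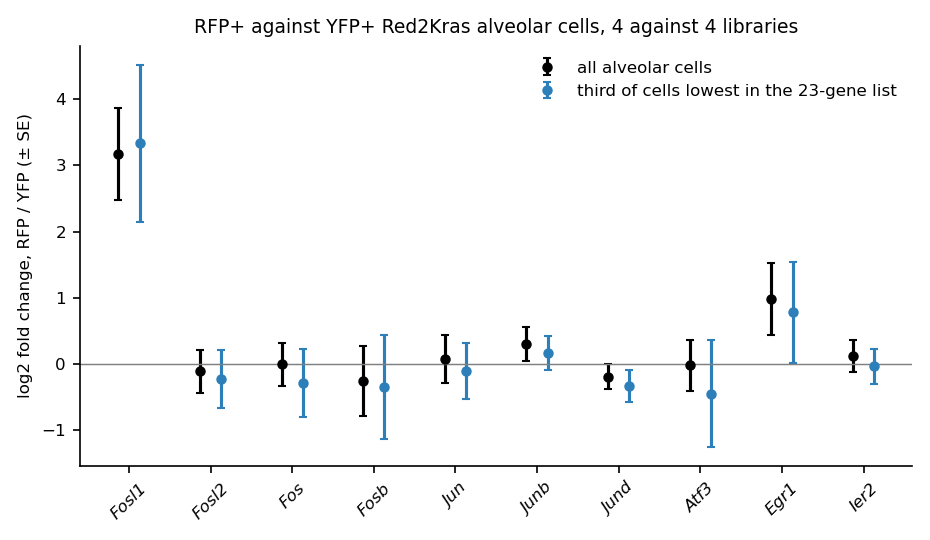
Log2 fold change of RFP+ over YFP+ alveolar cells for each member, with bars of 1 standard error derived from the F statistic of edgeR's quasi-likelihood fit over 4 RFP and 4 YFP libraries, in all alveolar cells and in the lowest tertile by dissociation-linked genes. Fosl1 lies near 3 in both sets of cells (3.17 and 3.33), Egr1 lies between 0 and 1, and Fos, Fosl2, Jun and Atf3 lie within 1 standard error of 0 in both sets.

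In 3 of the 4 RFP libraries, most Fosl1 mRNA came from DATP-like cells. Clusters were made without the 10 members and without the dissociation-linked genes, and in the 3 libraries with at least 50 DATP-like cells, Fosl1 stood at 132 CPM in DATP-like cells of 4 days RFP replicate 2, and at 74.5 and 44.5 CPM in those of 2 weeks RFP replicates 1 and 2. In the primed AT2-like cells of the same libraries (marked by Lcn2, Lrg1 and Ptges) it stood at 1.20, 5.42 and 1.18 CPM. The ratio was 110 (95% counting interval 42.5 to 405), 13.7 (11.7 to 16.2) and 37.8 (10.4 to 313), intervals that cover counting error only. Cd177+ mixed-like cells held 0.555 and 6.02 CPM, cycling-like cells 1.02 to 10.6 over 8 libraries, and immune-like cells 0 to 7.83 over 9 libraries.

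DATP-like cells gave 97.9% of the 433 alveolar Fosl1 UMIs of 4 days RFP replicate 2 while holding 39.3% of its UMIs. The corresponding shares were 74.3% of 1632 Fosl1 UMIs (23.4% of all UMIs) in 2 weeks RFP replicate 1 and 96.7% of 676 (38.0%) in 2 weeks RFP replicate 2. In the library labelled 4 days RFP replicate 1, the 40 DATP-like cells gave 43.4% of 99 Fosl1 UMIs and 1.79% of all UMIs, and held Fosl1 at 125 CPM (95% counting interval 90.3 to 168), within the range of the other RFP libraries. For Fos the DATP-like share of UMIs in the same libraries was 22.5%, 19.9% and 56.1%, and for Jun 18.4%, 17.8% and 52.6%, so that neither gene was held by DATP-like cells as Fosl1 was. In YFP, the 22 DATP-like cells of 2 weeks replicate 1 held Fosl1 at 71.1 CPM (95% counting interval 45.5 to 106) and the 29 of replicate 2 at 48.6 (31.2 to 72.4), within the range of the RFP libraries. In these cells of wildtype colour, 26.4% and 88.9% of the library's Fosl1 UMIs (of 91 and 27) were found in 1.32% and 6.88% of its UMIs.

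**Figure D3:**
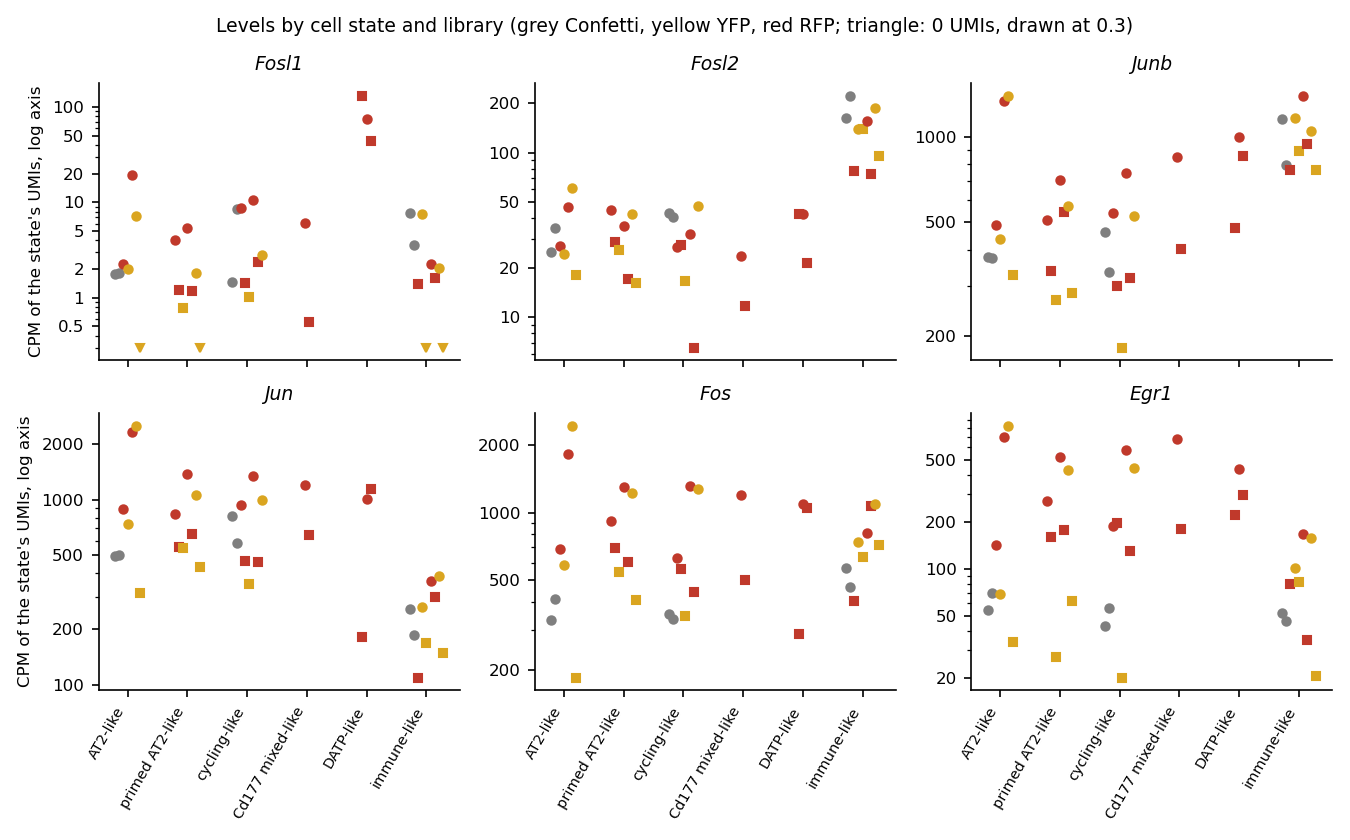
Level of 6 members, Fosl1, Fosl2, Junb, Jun, Fos and Egr1 (CPM of the state's own UMIs), by cell state, 1 point for each library with at least 50 cells of that state and no error bars. Fosl1 reaches 44.5 to 132 in DATP-like cells and stays at or under 19.1 in the other alveolar states, whereas the ranges of Fos and Jun overlap between states and Fosl2 is highest in immune-like cells (74.5 to 222).

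Among DATP-like clusters, Fosl1 was highest in the one led by Aldh1a3 and Hmga2, at 140, 103 and 75.1 CPM in 4 days RFP replicate 2 and 2 weeks RFP replicates 1 and 2. The cluster led by Hopx and Procr held 70.2, 52.8 and 22.5 CPM, so that each library had the same order of the pair. That cluster gave 722 of the 1107 DATP-like cells of 2 weeks RFP replicate 2, and it scored 1.50 for the DATP markers and 1.15 for those of alveolar type I (AT1) cells, the thin gas-exchange cells that Hopx marks. When all cells were clustered together, 440 of its cells had been in an AT1-like cluster of 444. A further cluster led by Gzme in 2 weeks RFP replicate 1 held 49.1. AT2-like cells held at most 2.27 CPM, except in the 2 weeks libraries numbered 1 (19.1 in RFP and 7.13 in YFP). There most of the AT2-like cells came from a cluster of 3023 cells that scored near 0 for AT2 markers (0.055) and slightly higher for DATP markers (0.0993), so that its name is weak, and was led by Nfkbia, Atf3, Thbs1 and Fosb, in which Fosl1 ranged from 6.82 to 25.2 CPM, against 0 to 0.479 in the other AT2-like clusters.

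A Fosl1 UMI was found in 42.0% of DATP-like cells (95% exact binomial interval 40.1% to 43.9%), and in 12.8% (11.5% to 14.2%) once each cell was thinned to 2000 UMIs. These intervals cover the counting of pooled cells and not the spread between libraries, which was wider: the thinned DATP-like share was 24.0% in 4 days RFP replicate 2, 13.8% in 2 weeks RFP replicate 1 and 6.51% in 2 weeks RFP replicate 2. Over pooled cells the thinned share was 0.447% in AT2-like, 0.319% in primed AT2-like, 1.04% in cycling-like and 0.206% in immune-like cells, the last taken here as the background of free RNA although macrophages can express Fosl1 (median depth 7084 UMIs against 11470 in DATP-like cells before thinning). Each of the 3 DATP-like shares lay above the highest immune-like share of any library (2.20%), while the pooled AT2-like and primed AT2-like shares were near the pooled background, AT2-like cells of the 2 weeks libraries numbered 1 being higher (3.00% in RFP and 1.85% in YFP). By library the thinned share of all alveolar cells was 8.96% in 4 days RFP replicate 2 and 3.90% and 2.63% in the 2 weeks RFP libraries, but 0.512% in the library labelled 4 days RFP replicate 1, within the range of 0.170% to 0.663% in the YFP and Confetti libraries.

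The difference in Fosl1 was then read in the cells of each library with the least of the dissociation pattern. Cells of each library were split into tertiles by the share of their UMIs in the 23 other dissociation-linked immediate-early genes, among them Btg2, Ier5 and Klf2. The lowest tertile was therefore not equally low in all libraries. In the 2 weeks libraries numbered 1 its Fos level was 453 CPM in RFP and 718 in YFP (TMM-scaled), against 110 to 306 in the others. A limit pooled over libraries kept 588 cells of that RFP library and 411 of that YFP library, where 1351 and 1408 were used. In DATP-like cells Fosl1 stood at 81.8, 112 and 169 CPM from the lowest to the highest tertile of 4 days RFP replicate 2, at 61.7, 87.6 and 75.1 in 2 weeks RFP replicate 1 and at 23.7, 36.4 and 54.4 in 2 weeks RFP replicate 2. Other alveolar cells of the lowest tertile held no Fosl1 UMI in 4 days RFP replicate 2 (375 cells), 3.68 CPM in 2 weeks RFP replicate 1 and 0.27 in 2 weeks RFP replicate 2. DATP-like cells therefore held more Fosl1 than other alveolar cells within every tertile of these 3 libraries, and within DATP-like cells Fosl1 was itself higher in the highest tertile than in the lowest. Outside DATP-like cells Fosl1 also lay in the highest tertile, where 25 of its 27 UMIs in Confetti RFP and 24 of 28 in Confetti YFP were found.

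The level of Fos was then set against the same tertiles. In DATP-like cells of 2 weeks RFP replicate 1 it went from 213 through 612 to 1981 CPM, and in the other alveolar cells from 567 through 1286 to 2243. In 2 weeks RFP replicate 2, Fos was 137, 372 and 1660 CPM in DATP-like cells and 112, 549 and 1409 in other cells. In both 2 weeks libraries the level of Fos differed between the lowest and highest tertile by more than between DATP-like and other cells of the same tertile. In 4 days RFP replicate 2 the gap between the cells was of like size to that between tertiles, with Fos at 165, 248 and 373 CPM in DATP-like cells and 340, 661 and 1151 in other cells. Jun went from 295 to 1692 CPM in DATP-like cells and from 678 to 2272 in other cells of 2 weeks RFP replicate 1, and from 242 to 1696 and from 191 to 1535 in 2 weeks RFP replicate 2. In 4 days RFP replicate 2 it went from 92.0 to 259 CPM in DATP-like cells and from 281 to 880 in other cells, so that in this library both genes were lower in DATP-like cells in every tertile, where Fosl1 was higher.

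**Figure D4:**
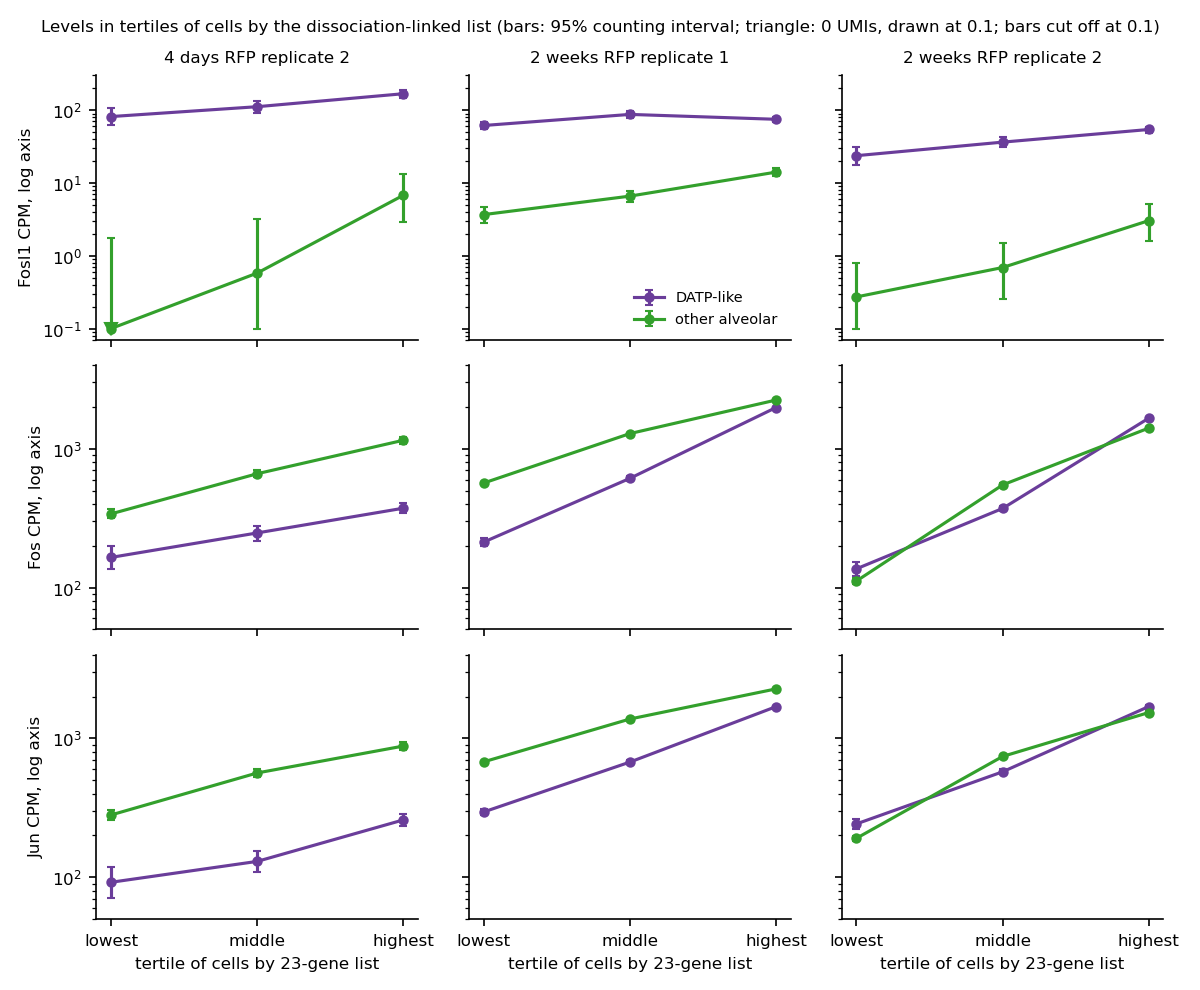
Level of Fosl1, Fos and Jun (CPM, log axis) in DATP-like cells and in other alveolar cells, by tertile of the share of dissociation-linked genes, in the 3 libraries with at least 50 DATP-like cells, with bars of the 95% counting interval. The Fosl1 lines of DATP-like cells lie at 23.7 or higher in every tertile, above all other alveolar cells (at most 14.1), and climb at each step in 2 of the 3 libraries, while Fos and Jun climb at each step in both sets of cells and are not higher in DATP-like cells throughout.

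In the lowest tertile alone, Fosl1 had 2 and 56 UMIs in the 4 days RFP libraries and none in the 4 days YFP libraries. At 2 weeks it had 365 and 52 UMIs in RFP (14.8 and 3.80 CPM, TMM-scaled over the cells of that tertile, unlike the unscaled tertile values above) against 25 and 0 in YFP, the 25 all coming from replicate 1, and the Confetti libraries had 1 each. RFP+ cells held 3.33 ± 1.19 log2 units more than YFP+ cells over both time points (unadjusted p = 0.0186, adjusted p = 0.21, edgeR). This difference was close in size to that in all alveolar cells and did not pass the threshold of 0.05. No gene was called there (0 of 10864, 0%), with 1784 genes and 1 member at an unadjusted p under 0.05, and DESeq2 called 478 genes and no member, while edgeR without the filter called Fosl1 and Egr1 with 6.5% of genes. With the same-numbered libraries of each time point as pairs, edgeR called Fosl1 there with 11.1% of genes (log2 3.56 ± 0.62, adjusted p = 0.0102). Leaving out 1 library at a time moved the Fosl1 difference between 2.40 and 9.34 log2 units, the largest value being reached without 2 weeks YFP replicate 1, whose removal leaves no Fosl1 UMI in YFP and makes the fitted value no bound.

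Fosl2 did not follow Fosl1. It stood at 28.0 and 32.7 CPM in the 4 days RFP libraries against 24.2 and 27.2 in 4 days YFP, and at 33.9 and 14.9 in 2 weeks RFP against 45.2 and 19.7 in 2 weeks YFP, with 25.1 and 31.3 in Confetti RFP and YFP. The 4 days RFP libraries lay just above the 4 days YFP libraries, where 3 of 10 members (Fosl1, Fosl2 and Egr1) and 15.8% of genes did so (15.9% lay wholly below, and no member). At 2 weeks the groups overlapped, and the libraries numbered 1 were the higher of each pair. Over both time points the difference was −0.11 ± 0.33 log2 units (adjusted p = 0.876), and in the lowest tertile −0.22 ± 0.44.

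Fosl2 stood at 42.6, 42.4 and 21.5 CPM in DATP-like cells of 4 days RFP replicate 2 and 2 weeks RFP replicates 1 and 2, against 28.5, 35.8 and 17.1 in primed AT2-like cells. The ratios were 1.49, 1.19 and 1.26, the last with a 95% counting interval of 0.860 to 1.91. Against cycling-like cells the ratios were 1.54, 1.33 and 3.28 (95% counting interval of the last 1.92 to 6.06), and against Cd177+ mixed-like cells of the 2 weeks libraries 1.80 and 1.84, while against AT2-like cells, numerous enough only in 2 weeks RFP replicate 1, the ratio was 0.903 (0.752 to 1.09). Immune-like cells held more, at 74.5 to 222 CPM over 9 libraries, and at a thinned depth 18.6% of them had a Fosl2 UMI against 6.54% of DATP-like, 6.34% of primed AT2-like and 5.44% of AT2-like cells. In the alveolar sums the immune marker list summed to 4.31 to 28.2 CPM in Red2Kras RFP and 4.76 to 17.4 in Red2Kras YFP, and its part in the Fosl2 values was not tested.

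Jun, the main dimer partner of the Fos proteins, did not separate the colours either. It stood at 883 and 379 CPM in 4 days RFP against 728 and 573 in 4 days YFP, at 1224 and 802 in 2 weeks RFP against 1241 and 497 in 2 weeks YFP, and at 492 and 449 in Confetti RFP and YFP. The libraries numbered 1 were the higher of each pair of both colours at both times. The RFP to YFP difference was 0.08 ± 0.36 log2 units over both time points (adjusted p = 0.925) and −0.10 ± 0.43 in the lowest tertile. In DATP-like cells Jun was 182, 1002 and 1142 CPM, which was 0.33, 0.73 and 1.76 times its level in primed AT2-like cells of 4 days RFP replicate 2 and 2 weeks RFP replicates 1 and 2, so that the direction was not shared by the libraries. A Jun UMI was found at thinned depth in 53.7% of DATP-like, 64.7% of primed AT2-like, 51.5% of AT2-like and 27.9% of immune-like cells.

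Junb and Jund, the other Jun proteins, were not called either. Junb, often an antagonist of Jun, stood at 499 and 375 CPM in 4 days RFP against 429 and 285 in 4 days YFP and at 760 and 566 in 2 weeks RFP against 682 and 362 in 2 weeks YFP. Junb was higher in RFP in each same-numbered pair, and the fit with these pairs did not call it. Its difference was 0.30 ± 0.26 log2 units (adjusted p = 0.54), and its level in DATP-like cells (477, 1000 and 857 CPM) was above that in primed AT2-like cells in each of the 3 libraries (337, 704 and 543), although in 2 weeks RFP replicate 1 it was 0.749 times that in AT2-like cells (95% counting interval 0.723 to 0.775). Jund, a broadly expressed Jun gene, stood at 1578 and 1472 CPM in 2 weeks RFP against 1952 and 1600 in 2 weeks YFP. It was the 1 of 10 members that lay wholly below YFP at 2 weeks, where 25% of genes did so and 28.3% lay above, and its difference over both time points was −0.19 ± 0.19 log2 units (adjusted p = 0.605).

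Fos, Fosb, Atf3 and Ier2 differed more between the libraries of one colour than between the colours at 2 weeks, a description without a test. Fos stood at 689 and 493 CPM in 4 days RFP against 576 and 569 in 4 days YFP, at 1185 and 689 in 2 weeks RFP against 1389 and 513 in 2 weeks YFP, and at 323 and 364 in Confetti RFP and YFP. The highest values of both colours were in the 2 weeks libraries numbered 1, which also held the most of the 23 other dissociation-linked genes and, beside 2 weeks RFP replicate 2 (7525 CPM), the most heat-shock mRNA of an 11-gene list (10531 CPM in RFP and 11101 in YFP, against 1918 to 4300 in the remaining 7). Fosb, a Fos relative of the same early wave, was high in the same libraries at 2 weeks, with 426 and 109 CPM in RFP against 652 and 142 in YFP, but not at 4 days, with 231 and 256 in RFP against 178 and 278 in YFP. Atf3, an ATF factor of the stress response, stood at 810 and 351 CPM in 2 weeks RFP against 1038 and 345 in 2 weeks YFP, and at 485 and 316 in 4 days RFP against 324 and 354 in 4 days YFP. Ier2 stood at 426 and 321 CPM in 2 weeks RFP against 438 and 270 in 2 weeks YFP, and at 359 and 233 in 4 days RFP against 289 and 229 in 4 days YFP. The part of dissociation in these values was not tested.

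The RFP to YFP differences of these genes over both time points were small against their errors. Fos differed by −0.00325 ± 0.32 log2 units (adjusted p = 0.997), Fosb by −0.26 ± 0.52 (adjusted p = 0.814), Atf3 by −0.02 ± 0.39 (adjusted p = 0.982) and Ier2 by 0.12 ± 0.24 (adjusted p = 0.811). The direction of Fos, Fosb, Atf3 and Ier2, and that of Fosl2 and Jun, depended on which library was left out. These errors leave room for differences of either sign, and a p above the threshold does not show equal levels.

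Egr1 stood between the 2 patterns. At 4 days it was 152 and 189 CPM in RFP against 67.7 and 32.4 in YFP, with no overlap, and 51.8 and 61.8 in Confetti RFP and YFP. At 2 weeks it was 493 and 215 CPM in RFP against 487 and 114 in YFP, where the groups overlapped and the libraries numbered 1 were high in both colours. Within each same-numbered pair Egr1 was higher in RFP, by little in the 2 weeks libraries numbered 1, and the fit with these pairs did not call it. The difference was 1.77 ± 0.70 log2 units at 4 days (unadjusted p = 0.0347, adjusted p = 0.842), 0.23 ± 0.68 at 2 weeks and 0.98 ± 0.54 over both (adjusted p = 0.334, edgeR), and 0.78 ± 0.76 in the lowest tertile. Its value at 2 weeks without 1 library ran from −0.51 to 1.61.

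Within libraries, all 10 members were higher in cells with more of the dissociation-linked list. With each cell thinned to 2000 UMIs, the highest tertile of a library lay above the lowest in 10 of 10 libraries for Fos (log2 difference 0.99 to 3.02), Fosb (1.38 to 3.14), Egr1 (1.63 to 3.39) and Atf3 (1.31 to 4.00). The same was true of Jun (0.94 to 2.56), Junb (1.27 to 2.34), Ier2 (0.75 to 1.94), Jund (0.63 to 1.85) and Fosl2 (0.60 to 1.70), the last pair having the smallest lowest differences. Fosl1 was also higher in 10 of 10 libraries (1.08 to 4.51, median 2.15, against 1.94 for Fos and 2.00 for Jun), although its lowest tertile held 0 to 5 thinned UMIs in 7 libraries, so that the size of its difference is not read there. The tertiles were cut on the cells they describe, so that these values carry no test.

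Against Confetti cells, most members were higher in Red2Kras cells of both colours at 2 weeks, without passing the test. For 2 weeks RFP the differences were 3.44 ± 0.91 log2 units for Fosl1 (adjusted p = 0.0583), 2.64 ± 0.72 for Egr1 (adjusted p = 0.0621), 1.15 ± 0.29 for Jund (adjusted p = 0.0552) and 1.45 ± 0.50 for Fos (adjusted p = 0.0994). Atf3 (1.51 ± 0.58), Fosb (1.44 ± 0.77), Jun (1.11 ± 0.54) and Junb (0.92 ± 0.40) were positive with adjusted p from 0.124 to 0.237, while Ier2 (0.27 ± 0.36) and Fosl2 (−0.19 ± 0.46) were near 0. By edgeR 0 of 10 members were called where 5.31% of 13758 genes were (731 genes, 3.41% higher and 1.9% lower), and 6 members had an unadjusted p under 0.05. DESeq2 called 5 members (Fos, Fosl1, Jund, Atf3 and Egr1) with 16.3% of genes, and leaving out either 4 days RFP library, which enters only the shared spread, let edgeR call Fosl1 and Jund with 13.9% of genes. Without the filter 7 members were called with 15.5% of genes. The 731 calls rested on single libraries: 1 gene was called without Confetti RFP, 1 without Confetti YFP, 5 without 2 weeks RFP replicate 2, 37 and 43 without either 4 days YFP library, 93 to 201 without 2 weeks RFP replicate 1 or either 2 weeks YFP library, and 0 (3046 at an unadjusted p under 0.05) when all filtered cells were kept.

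In 8 of 10 members, all but Fosb and Fosl2, both 2 weeks RFP libraries lay above both Confetti libraries, where 37.4% of genes did so, and no member lay wholly below, where 36.3% of genes did. The median of the members was 1.29 log2 units against 0.034 over all genes tested. In the lowest tertile, where 10.9% of 12114 genes and no member were called by edgeR (3 members at an unadjusted p under 0.05), Egr1 differed by 3.25 ± 1.01 log2 units (adjusted p = 0.0673) and Fos by 1.22 ± 0.75. Fosl1 had 417 UMIs in the 2 weeks RFP libraries there against 2 in the Confetti libraries, a ratio per UMI of 53.1 with a 95% counting interval of 14.6 to 440.3. Of these, 365 came from 2 weeks RFP replicate 1, without which the ratio was 18.2 (4.78 to 153.9), and the fitted difference of 5.42 ± 2.05 log2 units (adjusted p = 0.112, edgeR) was 4.07 without it and 6.04 without 2 weeks RFP replicate 2. In that tertile DESeq2 called Egr1 with 12.9% of genes, edgeR called 7 members with 16.2% without the filter, Egr1 with 17.1% when the tertile limit was pooled over libraries, and Fosl1 and Egr1 without 4 days RFP replicate 1 (16.3%) or replicate 2 (16.2%). The 1322 genes called in that tertile fell to 0 when either Confetti library was left out (3161 and 2571 at an unadjusted p under 0.05), to 5 without 2 weeks RFP replicate 2 and to 465 to 487 without 2 weeks RFP replicate 1 or either 2 weeks YFP library. Without 2 weeks RFP replicate 1, Fos in the lowest tertile stood at −0.15 log2 units.

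The 2 weeks YFP cells, which do not carry the oncogene, also had positive differences from Confetti. They differed by 1.47 ± 0.50 log2 units in Fos, 2.01 ± 0.79 in Fosb, 1.76 ± 0.58 in Atf3, 2.41 ± 0.71 in Egr1 and 1.37 ± 0.30 in Jund, and by 1.14 ± 0.91 in Fosl1. No member was called by edgeR (5 had an unadjusted p under 0.05) where 0.0436% of genes were, and DESeq2 called Jund and Egr1 with 0.741% of genes. Without the filter edgeR called Fos, Fosb, Atf3 and Egr1 with 2.54%. In 7 members both YFP libraries lay above both Confetti libraries, against 25% of genes, and none lay wholly below, against 27.2%. Without 2 weeks YFP replicate 1 the Fos difference was 0.57 and the Atf3 difference 0.75 log2 units. The RFP and YFP comparisons share the Confetti libraries, so that their likeness is not independent.

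At 4 days, RFP+ cells differed from Confetti by 3.98 ± 0.93 log2 units in Fosl1 (adjusted p = 0.463) and by 1.59 ± 0.70 in Egr1 (adjusted p = 0.566). No gene and no member was called by edgeR (0%), with 1212 genes and 1 member at an unadjusted p under 0.05, and DESeq2 called 265 genes (1.93%) with Fosl1 among them. Fosl1 was called by edgeR without 4 days RFP replicate 1 (2.41% of genes called), and Fosl1, Fosb and Egr1 without the filter (3.92%). In 7 members both RFP libraries lay above both Confetti libraries, against 24.6% of genes, and none lay wholly below, against 24.7%. The 4 days YFP cells differed by −0.22 ± 0.96 in Fosl1 and by 0.72 ± 0.29 in Jund, with no member and 0.0291% of genes called by edgeR, 1 member at an unadjusted p under 0.05 and no member called by DESeq2. There 5 members lay wholly above Confetti, against 16.1% of genes, and Ier2 wholly below, against 18.6%.

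The genes whose levels ran most like Fosl1 over the 10 libraries, among 7113 with a mean of at least 10 CPM, were Dusp5 (a nuclear ERK phosphatase, r = 0.991), Marcks (0.991), Zyx (0.990), Tgif1 (0.989) and Hmga2 (0.984). Dusp5 stood at 111 CPM in 4 days RFP replicate 2 and at 53.0 and 41.6 in 2 weeks RFP, against 2.80 to 9.09 in the other 7 libraries, the same 3 libraries leading in the same order as for Fosl1. The genes most like Fosl2 were led by Dedd2 (0.963), Esyt1 (0.950) and Srf (0.946), and those most like Jun by Dnaja1, a heat-shock chaperone (0.924). Mcl1 (0.959), Klf2 (0.932) and Ptpn2 (0.931) were most like Fos, H2-Q6 (0.902) was most like Fosb, and Hsp90aa1 (0.943), Sfn, Phlda1, Hsph1 and Dnajb1 (0.927) were most like Egr1. These correlations describe 10 libraries that share lines, times and depth.

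Among the members themselves, Fos ran with Atf3 (r = 0.98 over 10 libraries), Jun (0.90) and Fosb (0.84), and Jun with Junb (0.88) and Ier2 (0.85). Fosl1 ran with neither Fos (0.30) nor Jun (0.06), and more with Egr1 (0.66). Fosl2 ran with Fosb (0.73) more than with Fos (0.40). By these levels Jun stood with Fos, and Fosl1 apart from both.

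Of the pathway around these factors, ERK output genes and AP-1 target genes gave calls among 2 weeks RFP against Confetti, where 5.31% of genes were called. Of 21 tested genes known as AP-1 targets, 6 rose and none fell, among them Itga2, Mmp3 and Hmga2. None of this list and none of the ERK output genes was called when any single library of Confetti or 4 days YFP, or 2 weeks RFP replicate 2, was left out, or with all filtered cells, and DESeq2 called 14 AP-1 targets, all higher, and 7 ERK output genes. The integrin gene Itga2 stood at 106 and 150 CPM in 2 weeks RFP against 0.0621 and 0 in Confetti, the matrix protease Mmp3 at 37.7 and 16.1 against 0 in both, and Hmga2, a chromatin protein, at 57.8 and 47.8 against 0.124 and 0.472. Itga2, Krt8 and Plaur of this list are also DATP markers, and the DATP list summed to 1082 to 4429 CPM in the Red2Kras RFP libraries against 680 and 698 in Confetti. Itga2 and Hmga2 were also leading genes of a DATP-like cluster, and the list was written with earlier results of these data known. The part of DATP-like cells in the AP-1 target calls was not tested. Of 13 ERK output genes, 2 rose (Etv4, by 5.94 ± 0.91 log2 units, and the ERK phosphatase Dusp6, by 1.40 ± 0.28) and Etv5 fell by 2.15 ± 0.44.

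In the same comparison of 2 weeks RFP with Confetti, the upstream kinases and SRF partners gave no call by edgeR among 18 tested. Map2k4 (0.66), Map2k2 (0.61) and Elk3 (0.43) had the smallest p. Of 23 dissociation-linked immediate-early genes, Klf2 (2.67) and Btg2 (1.50) rose, and of 11 heat-shock genes Hspd1 (2.00) and Hsp90ab1 (1.88) did. Over all genes 5.31% were called there, 3.41% being higher. No gene of either list was called when any single library of Confetti, 4 days YFP or 2 weeks RFP, or 2 weeks YFP replicate 1, was left out, or with all filtered cells. In RFP against YFP over both time points no gene of any list was called by edgeR. An unadjusted p under 0.05 was found in 15 of 20 AP-1 targets (median 1.89 log2 units, against −0.027 over all genes) and 7 of 13 ERK output genes (median 0.80), and in 2678 of all 12498 genes. There Hbegf, an EGF receptor ligand, differed by 1.49 log2 units, Etv4 by 3.66, Dusp6 by 1.05 and Spry4, an ERK feedback inhibitor, by 1.08. Of the other AP-1 and ATF genes, Atf5 (1.01) and Maff (0.83) had an unadjusted p under 0.05. Elk3, an SRF partner, differed by 0.50, Ier5 of the dissociation-linked list by 1.16 and the chaperone gene Hspd1 by 0.98. No gene of these lists was called by edgeR in the 4 days and 2 weeks comparisons of RFP with YFP or in the other comparisons with Confetti over all alveolar cells.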

How the data were processed

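The deposited files held UMI counts per gene and barcode for each of the 10 libraries. The authors aligned the reads to GRCm38 with Cell Ranger, given as 3.1.0 in the submitters' processing notes and as 5.0.1 in the matrix headers. FastQC 0.11.3 and MultiQC 1.8 are also named in those notes. The deposited counts are not normalised, while the study's own analysis log-normalised and scaled its data.

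Barcodes with at least 1000 genes, at most 50000 UMIs and at most 15% mitochondrial UMIs were kept. No doublets were removed. Cells were clustered in scanpy 1.11.5 and igraph 0.11.9 (5000 variable genes without the members and dissociation-linked lists, 30 components, 20 neighbours, Louvain resolution 0.8, log scale of 10000 UMIs per cell), and the non-alveolar clusters were set aside. A cluster was called "X-like" from at least 3 markers detected in 25% of its cells, its leading genes and, except for AT2, a mean score of at least 0.25. State names are rebuilt and may differ from the authors' own.

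UMIs of alveolar cells were summed per library and tested with edgeR 4.0.16 in R 4.3.3 (TMM, filterByExpr, quasi-likelihood, Benjamini-Hochberg adjustment over all genes tested, threshold 0.05), with the time point as covariate over 8 Red2Kras libraries and with 6 groups over all 10 libraries elsewhere. CPM are TMM-scaled in sums of alveolar cells and unscaled within states, lists and tertiles, except where a tertile value is said to be TMM-scaled. Lowest-tertile cells were taken per library. The code was tested on simulated data, and p-values measure the spread between pooled libraries only. Standard errors of edgeR differences were derived as the absolute log2 fold change divided by the square root of its F statistic. Counting intervals are exact at 95%.

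All members are named. Other lists give their counts and up to 3 called genes of the largest change or, with none, of the smallest p, and 5 correlated genes were taken per examined member. Some results of these lists are not reported here. The members and lists were chosen with earlier results of these data known. Deviations of same-numbered RFP and YFP libraries correlated at 0.475 at 4 days and 0.554 at 2 weeks. Between the other pairs of groups they correlated at 0.0184 to 0.253, not all of which reached the limit of 0.1 set for a block over all libraries. The values given first therefore have no block and leave out the pairing within time points. Fits with same-numbered libraries as pairs are given beside them. Replicate pairs differed beyond sampling noise. Alternatives were DESeq2 1.42.0 and its size factors, no filter, a replicate block over all libraries or within each time point, each library left out, all filtered cells, cells without immune UMIs, thinned cells and other tertile limits.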

Additional observations from a re-analysis of the deposited data

Results flagged for a closer look

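Among the 4 Red2Kras YFP libraries, 2 weeks YFP replicate 1 stood far from the rest in Fos and Atf3. Fos reached 1389 CPM there, with the other 3 libraries between 513 and 576. Atf3 reached 1038 CPM there, with the others between 324 and 354. In all, 20 sets of 4 libraries were examined in this way (10 members in each colour), and chance alone marks about 1 set in 20. Both values come from the same library, and Fos and Atf3 ran together over the libraries (r = 0.98), so that they are not separate observations. The same library was also high in the 23 other dissociation-linked immediate-early genes (3413 CPM) and in the heat-shock list (11101 CPM), and the part of these in the Fos and Atf3 values was not tested. The 10 members were also examined for opposite directions at 4 days and 2 weeks in every library, and 0 met that description.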

How the results depend on the processing

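No member passed the threshold in any of the fits reported first. Shares in brackets are those of all genes called in the same fit. Over both time points the members called were 2 without the filter on low counts (9.4%) and 1 with DESeq2 (9.55%). They were 1 with pairs within each time point (16.1%) and 1 without both 4 days libraries numbered 1 (9.57%), this last pair of alternatives being added after seeing the data. In the lowest tertile 2 were called without the filter (6.5%) and 1 with the pairs (11.1%). At 4 days 2 were called without the filter (2.39%) and 1 with DESeq2 (0.77%), and at 2 weeks 1 without the filter (6.65%). Against Confetti, without the filter and with DESeq2 respectively, 3 (3.92%) and 1 (1.93%) were called in 4 days RFP. In 2 weeks RFP they were 7 (15.5%) and 5 (16.3%). In the lowest tertile of that comparison they were 7 (16.2%) and 1 (12.9%), and 1 with a tertile limit pooled over libraries (17.1%). In 2 weeks YFP they were 4 (2.54%) and 2 (0.741%). Without a filter, genes with few UMIs enter and the fit called many more genes overall (9.4% over both time points), the cause not being tested. Leaving out 1 library gave 0 to 1 members over both time points, 0 to 1 at 4 days, 0 to 1 in 4 days RFP against Confetti, 0 to 2 in 2 weeks RFP against Confetti and 0 to 2 in its lowest tertile, and 0 elsewhere. The share of DATP-like cells with a Fosl1 UMI moved from 42.0% to 12.8% when cells were thinned.

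With the replicate number as a block, the fit over both time points called 882 genes and 1 member, Fosl1 (log2 3.00, adjusted p = 0.0427, edgeR), and changed the call of no other member. Deviations of same-numbered RFP and YFP libraries correlated at 0.475 at 4 days and 0.554 at 2 weeks, and at 0.0184 to 0.253 between the other pairs of groups. With a replicate block of the same-numbered RFP and YFP libraries within each time point, 2008 genes were called over both time points and 1210 in the lowest tertile, and Fosl1 was the 1 member called in each. The labels do not say whether same-numbered libraries came from the same mice.

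Fosl1 kept its direction in RFP against YFP under all alternatives run, except that it did not pass the filter with tertiles by heat-shock genes and has no value there. Directions near 0 did not hold. Over both time points Fos turned from −0.00325 to 0.0234 with DESeq2 size factors and with DESeq2, to 0.0113 without the filter, to 0.00328 with the block and to 0.0456 with pairs within each time point, Atf3 to 0.00465, 0.00482 and 0.00351 with DESeq2 size factors, DESeq2 and those pairs, and Jun to −0.0502 without both 4 days libraries numbered 1. Jun in the lowest tertile turned to 0.0697 with tertiles by heat-shock genes. With 1 library left out, the log2 differences ran over both time points from −0.19 to 0.35 in Fos, −0.62 to 0.39 in Fosb, −0.29 to 0.25 in Fosl2, −0.16 to 0.35 in Jun, −0.23 to 0.43 in Atf3 and −0.014 to 0.29 in Ier2. In the lowest tertile they ran from −0.42 to 0.39 in Fosl2, −0.44 to 0.43 in Jun, −0.64 to 0.32 in Fos and −0.88 to 0.57 in Fosb. At 4 days Jun ran from −0.78 to 0.44. At 2 weeks Fosl2 ran from −1.15 to 0.29, Jun from −0.30 to 1.01 and Egr1 from −0.51 to 1.61. Against Confetti, Fosl2 in 2 weeks RFP ran from −0.93 to 0.24, Fos in its lowest tertile from −0.15 to 1.88 and Fosl1 in 4 days YFP from −0.49 to 0.042. Fosl1 in the lowest tertile rested on 0 to 25 UMIs in each YFP library.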
